A study of Mus musculus with 12 samples.

Results

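The kidneys of vehicle-treated male mice were described here from their messenger RNA, with no comparison between groups. The 3 control libraries were used, of 12 libraries in the series, and genes were ranked by their mean FPKM (fragment counts divided by gene length and library size) over these 3 libraries. The animals were wild-type C57BL/6 males aged 8 weeks that received the vehicles alone. Corn oil was given by gavage daily for 4 days and then for 3 more days, and saline took the place of the cisplatin injection. The other 9 libraries, not used for any value below, come from mice given cisplatin, pregnenolone carbonitrile (PCN) or both, in a study of the pregnane X receptor in kidney injury. Groups held 6 to 8 animals, and no label says which animals the 3 control libraries came from. The labels call them replicates without saying that each is a separate mouse, so the spread between them may be partly technical. The tissue is labelled kidney with no region named. The reads behind the FPKM could be recovered from the table and ranged from 19099281 to 23429695 assigned reads per library, and an FPKM of 1 stood for 18.7 to 22.8 reads per kilobase of gene. Values below are FPKM unless another unit is named, and ± is the SD over the 3 controls (n = 3).

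As background, each nephron starts at the glomerulus, where podocytes and fenestrated endothelium filter the plasma. The proximal tubule then takes back most of the filtered glucose, amino acids, phosphate and water by sodium-driven transport, which the sodium pump and dense mitochondria sustain. The thick ascending limb dilutes the urine by sodium, potassium and chloride uptake, the distal convoluted and connecting tubules set salt and calcium, and the collecting duct sets water, potassium and acid. The proximal tubule makes up most of the renal cortex, and in male mice it is also a target of androgens.

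Of 52636 genes in the table, 12543 (23.8%) had a mean FPKM of at least 1, 4674 had at least 10, 542 at least 100, 25 at least 1000 and 5 at least 10000. The 5 genes of at least 10000 held 22.0% of the summed FPKM, and the 25 of at least 1000 held 34.0%. Another 26407 genes were listed at 0 in every control. Of 22027 protein-coding genes, 11199 (50.8%) had a mean of at least 1. The 3 libraries gave between 12499 and 12603 genes of at least 1.

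The highest transcript was Kap, the kidney androgen-regulated protein of the proximal tubule (ENSMUSG00000032758, chr6:133849851-133853762, minus strand). It stood at 30031, 25052 and 27460 in controls 1 to 3, or 6.66% ± 0.535 of all FPKM. Control 1 was highest and control 2 lowest, and all 3 values lay above the 21277 that was the highest value of any other gene. Next came mt-Co1, a cytochrome c oxidase subunit encoded by the mitochondrial DNA, at 21277, 20910 and 20306. Then mt-Cytb, the cytochrome b of respiratory complex III, stood at 16190, 14611 and 15457, and Gpx3, the secreted plasma glutathione peroxidase that the proximal tubule makes (chr11:54902453-54910377, plus strand), at 13671, 15355 and 14134. The ranges of mt-Cytb and Gpx3 overlapped, so their order was not separable from the spread. The complex I genes mt-Nd1 (12472 ± 966), mt-Nd2 (8663 ± 686), mt-Nd4 (5667 ± 377), mt-Nd5 (5576 ± 350) and mt-Nd6 (4214 ± 209) followed, and mt-Nd4 and mt-Nd5 overlapped. Fth1, the heavy chain of the iron store ferritin, came next at 4105 ± 83.7. These 10 genes were the 10 highest in each of the 3 controls.

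Among the 30 highest genes were 5 of the 36 genes of the proximal tubule lists. The connecting tubule list gave 2 of its 5 genes and the thick ascending limb list 1 of its 14. Klk1, the tissue kallikrein of the connecting tubule, stood at 1855, 1672 and 1486, and S100g, the small calcium buffer calbindin-D9k, at 1419, 1320 and 1312. Both were highest in control 1 and lowest in control 3. Umod, the uromodulin that the thick ascending limb secretes into urine, stood at 1109, 1387 and 1322, with control 1 the low library. Slc34a1, the phosphate transporter of the proximal tubule brush border, stood at 1156, 1127 and 1100.2. Atp1b1, the beta subunit of the sodium pump, reached 837 ± 48.8. Acy3, an aminoacylase that removes acetyl groups from mercapturates, reached 1194 ± 142, and Miox, the enzyme that opens the ring of myo-inositol, reached 1159 ± 65.3.

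Among the rest of the 30 highest genes were Gpx1 (1207 ± 71.6), the cytosolic glutathione peroxidase, and Spink1 (1130 ± 146), a secreted inhibitor of trypsin. Igfbp7, a secreted binding protein, stood at 1133 ± 97.0, Ass1, the argininosuccinate synthase that makes arginine, at 945 ± 72.9, and Akr1c21, an aldo-keto reductase acting on steroids, at 917 ± 20.7. Eef1a1, which brings aminoacyl transfer RNA to the ribosome, stood at 1480 ± 150, and Rplp1, a ribosomal stalk protein, at 973 ± 36.1. Oxidative phosphorylation genes of the nucleus were there with Cox6a1 (1360 ± 77.0), Cox8a (1238 ± 81.3), Usmg5 (977 ± 77.5) and Atp5b (932 ± 15.7). The 67-nucleotide mitochondrial transfer RNA gene mt-Tp, at 2516 ± 67.0, held 0.0165% of assigned reads and ranked 1057th by reads. Its FPKM rests on a very short gene.

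**Figure D1:**
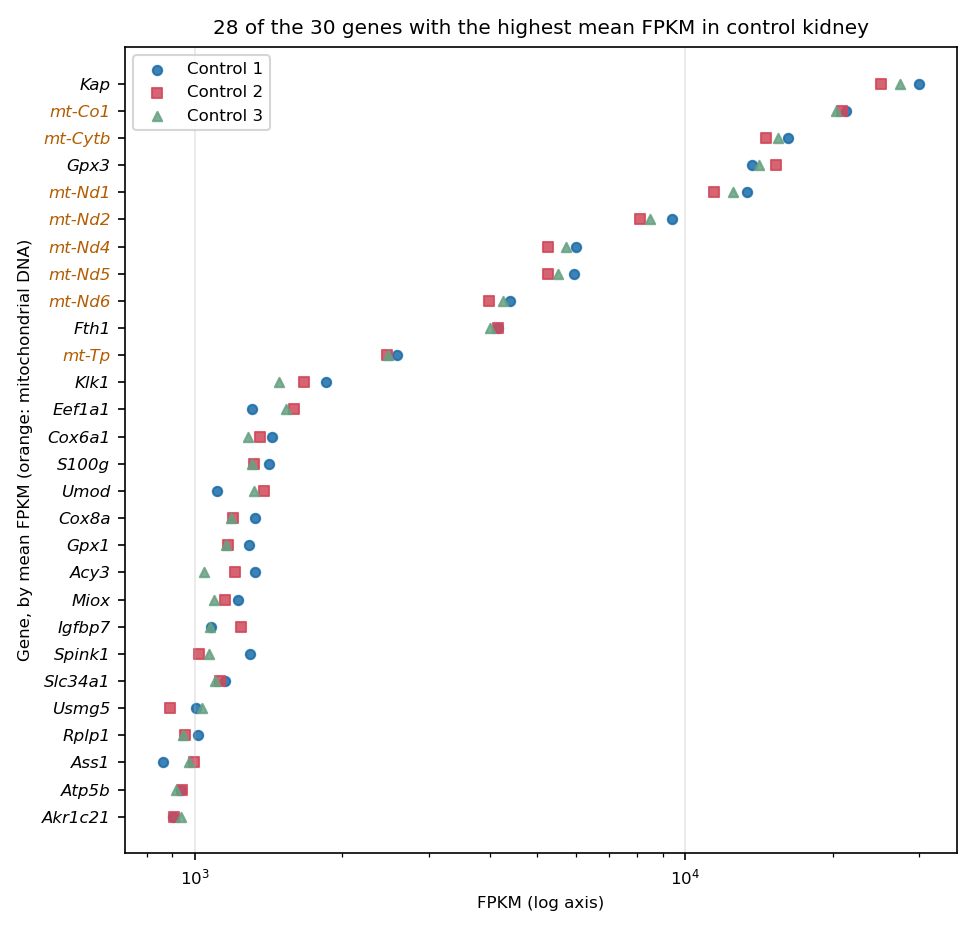
FPKM on a log axis of 28 of the 30 genes with the highest mean in the 3 controls, 1 point per control and gene, with genes of the mitochondrial DNA in orange. Kap sits alone at the top between 25052 and 30031, and 7 of the next 9 genes are mitochondrial.

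The spread of the 50 highest genes between the controls was like that of other genes with a mean of at least 10. None had a highest control of at least 2 times the lowest, against 4.16% of the 12543 genes with a mean of at least 1 and 1.24% of the 4674 with at least 10. The largest such ratio was 1.34 (Cyp4b1, 756, 1012 and 956) and the median was 1.11. The median was also 1.11 for genes with means from 10 to 100 and for those from 100 to 1000. Of the 50 highest, 46 were among the 50 highest in all 3 libraries, and 86 of the 100 highest were. Of the 50, 10 lay on the mitochondrial DNA and 40 were protein-coding genes of the nucleus. Of the lists below, those of the proximal tubule supplied 10 of their 36 genes to the 50 and the connecting tubule list 2 of its 5. The thick ascending limb list supplied 1 of its 14 and the principal cell list 0 of its 12. The lists differ in size, so these counts do not rank the segments.

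Ranking depends on the unit, because FPKM divides by gene length and the deposited lengths are whole-gene values. The 40 nuclear genes among the 50 highest had a median length of 1737.5 nucleotides, against 4159 for the protein-coding genes of at least 1 FPKM. By assigned reads the first gene was mt-Co1 with 3.15% of reads, then Gpx3 with 2.55%, Kap with 1.90% and mt-Cytb with 1.73%. Lrp2, which encodes the endocytic receptor megalin and is 16701 nucleotides long, ranked 439th by FPKM and 25th by reads. Acsm2, a medium-chain acyl-CoA synthetase of 7424 nucleotides, ranked 50th and 12th. Of the 50 highest genes by FPKM, 34 were also among the 50 with most reads.

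The summed signal was concentrated in few genes. The 10 highest genes held 28.8% ± 0.961 of the summed FPKM, the 50 highest 38.9% ± 0.851, the 100 highest 44.7% ± 0.890 and the 1000 highest 72.0% ± 0.563. It took 172 ± 14.7 genes to reach 50% of FPKM (156, 185 and 175 in controls 1 to 3) and 655 ± 13.9 to reach 50% of reads. The 50 genes with most reads held 23.1% of reads.

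**Figure D2:**
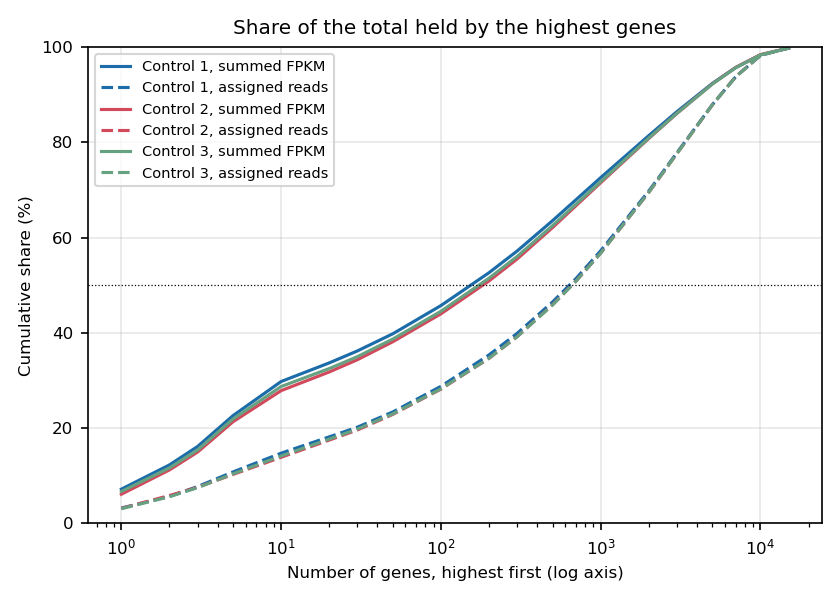
Cumulative share of summed FPKM (solid) and of assigned reads (dashed) against the number of genes on a log axis, counted from the highest, for each control. The FPKM curves cross 50% between 156 and 185 genes and the read curves between 639 and 664.

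The start sites of the highest nuclear genes were looked at in RefSeq promoter sequence of GRCm38.p6, which matched 16337 of 21994 protein-coding gene names. The motif TATAAA, the core of the TATA box, was searched on the gene's own strand in the 50 bases before the RefSeq start. It was found in 7 of the 50 highest matched nuclear genes (14%), 12 of the 200 highest (6%), 135 of 8757 genes of at least 1 FPKM (1.54%), 429 of 7580 genes under 1 (5.66%) and 564 of all 16337 (3.45%). The share was thus higher in the 50 highest genes than in expressed genes as a whole, and it is given as a description with no test. The 12 genes were Kap, Acy3, Miox, Sod1, Acsm2, Cyp2e1, Eef2, Prdx1, Igfbp4, Slc3a1, Cldn2 and G6pc. The motif CCGCCC, the core of a GC box, on either strand of the 250 bases before the start, was found in 24 of the 50 highest (48%) and in 60.7% of genes of at least 1 FPKM. Because the RefSeq start and the start in the deposited table can differ (they lay within 100 bases of each other for 159 of the 200 highest), a match says only that these letters stand there. The 5 matches that are printed show the motif in capitals with its flanks, 5′ to 3′ on the gene's strand, for 5 of the 50 highest genes, in order of level. The first T lies 31 bases before the RefSeq start in Kap (chr6:133853681-133853710, minus strand), 30 in Acy3 (chr19:3986528-3986557, plus), 40 in Miox (chr15:89334421-89334450, plus), 37 in Sod1 (chr16:90220713-90220742, plus) and 28 in Acsm2 (chr7:119554300-119554329, plus). In the same order, the RefSeq start lay 95, 91, 75, 20 and 0 bases from the start in the deposited table. The printed bases of Kap and Miox lie inside the gene as that table places it.
Kap: gagtacaggatgTATAAAagcccaggagga
Acy3: gacctgcgggccTATAAAtacagcctccta
Miox: aacctgtgcgcaTATAAAgagctcctgggc
Sod1: cagactcaggccTATAAAagctccgtggcg
Acsm2: ttgtgtggtgtaTATAAAggacatggaaga

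Genes of the mitochondrial DNA held 19.6% ± 0.762 of the summed FPKM and 9.21% ± 0.478 of assigned reads, and the 13 protein-coding ones alone held 18.1% ± 0.785 of FPKM. The 102 nuclear genes of oxidative phosphorylation, picked by the symbols Nduf, Sdh, Uqcr, Cox and Atp5, held 4.44% ± 0.168. Such a choice takes in assembly factors and leaves out genes with other symbols, such as Usmg5. The mitochondrial genes did not stand at one level. From the start of the genome onward, mt-Nd1 and mt-Nd2 stood at 12472 and 8663 and mt-Co1 at 20831 ± 490. Then came a low stretch with mt-Co2 at 477 ± 220, mt-Atp8 at 21.4 ± 3.57, mt-Atp6 at 371 ± 45.2, mt-Co3 at 396 ± 334, mt-Nd3 at 207 ± 38.6 and mt-Nd4l at 313 ± 108. After it mt-Nd4 and mt-Nd5 stood at 5667 and 5576, mt-Nd6, the one protein gene on the other strand, at 4214, and mt-Cytb at 15419 ± 790. By mean, the ribosomal RNA genes mt-Rnr1 (698 ± 34.2) and mt-Rnr2 (745 ± 77.9) were above the genes of the low stretch and below the other messenger genes. The library preparation is not described here, so these ribosomal RNA levels are not read as the content of the tissue.

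The same low stretch is where the nuclear genome carries a copy. On chromosome 1, on the minus strand between 24611535 and 24616197 (GRCm38), 7 annotated pseudogenes repeat mt-Co1 to mt-Nd4 in the same order. Gm28661 matched bases 1 to 681 of mt-Co2 without a difference, Gm10925 matched 678 bases of mt-Atp6, Gm28437 matched 783 bases of mt-Co3, Gm10222 matched 294 bases of mt-Nd4l and Gm28439 matched bases 1 to 876 of mt-Nd4. Gm28438 differed from mt-Nd3 at 1 of 345 bases. Gm29216 covers bases 1054 to 1545 of mt-Co1 with 6 differences, all near its start. The stretches printed show both cases, 5′ to 3′, with the bases that differ in capitals: mt-Co1 at chrM:6381-6470 (plus strand) beside Gm29216 at chr1:24616108-24616197 (minus strand), then the first 90 bases of mt-Co3 at chrM:8607-8696, which are letter for letter those of Gm28437 at chr1:24613882-24613971 (minus strand).
mt-Co1: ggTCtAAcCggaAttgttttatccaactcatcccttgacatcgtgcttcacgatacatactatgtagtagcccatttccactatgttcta
Gm29216: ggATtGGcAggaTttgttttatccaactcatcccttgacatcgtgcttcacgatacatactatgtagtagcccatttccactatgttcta
mt-Co3 and Gm28437: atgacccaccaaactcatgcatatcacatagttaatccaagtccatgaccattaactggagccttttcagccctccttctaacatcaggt

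How much of each gene is ambiguous was counted as the share of its 75-base words, on either strand, that also occur in a transcript of another gene in GENCODE release M21. It was 0% for mt-Nd1, mt-Nd6, mt-Cytb, mt-Atp8 and both ribosomal RNAs, 1.66% for mt-Nd5, 5.71% for mt-Nd2 and 39.8% for mt-Co1. It was 61.5% for mt-Nd4, 97.8% for mt-Nd3, 98.7% for mt-Nd4l, 99.5% for mt-Co2 and mt-Atp6 and 99.9% for mt-Co3. The 6 genes with at least 50% of words shared held 1.80% ± 0.188 of FPKM, and the 7 with under 50% held 16.3% ± 0.599. Among the 6, mt-Nd4 had words of its own over its later bases and stood at 5667, and the other 5 had means of 477 or less. The gene mt-Atp8, 204 nucleotides long, was low as well, with 90, 109 and 79 reads. It shares no word with an annotated transcript, but it lies between mt-Co2 and mt-Atp6, which both have copies on chromosome 1. Sequence outside annotated transcripts was not counted, so its 0% does not show that it has no copy there. The 7 copies on chromosome 1 summed to 797, 801 and 1146 FPKM, or 0.222% ± 0.0499 of the total. How the authors' counting treated reads with several matching places is not given here, and its part in the low stretch was not tested.

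The 3 controls disagreed in that stretch. The gene mt-Co3 stood at 781, 174 and 234, mt-Co2 at 719, 291 and 420, and mt-Nd4l at 195, 335 and 408. Control 1 was highest for the first pair and lowest for mt-Nd4l. From the lowest to the highest control, mt-Co1 ranged 1.05 times and mt-Atp6 1.28 times. Of the genes that share no word with an annotated transcript, mt-Cytb ranged 1.11 times and mt-Atp8 1.36 times.

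**Figure D3:**
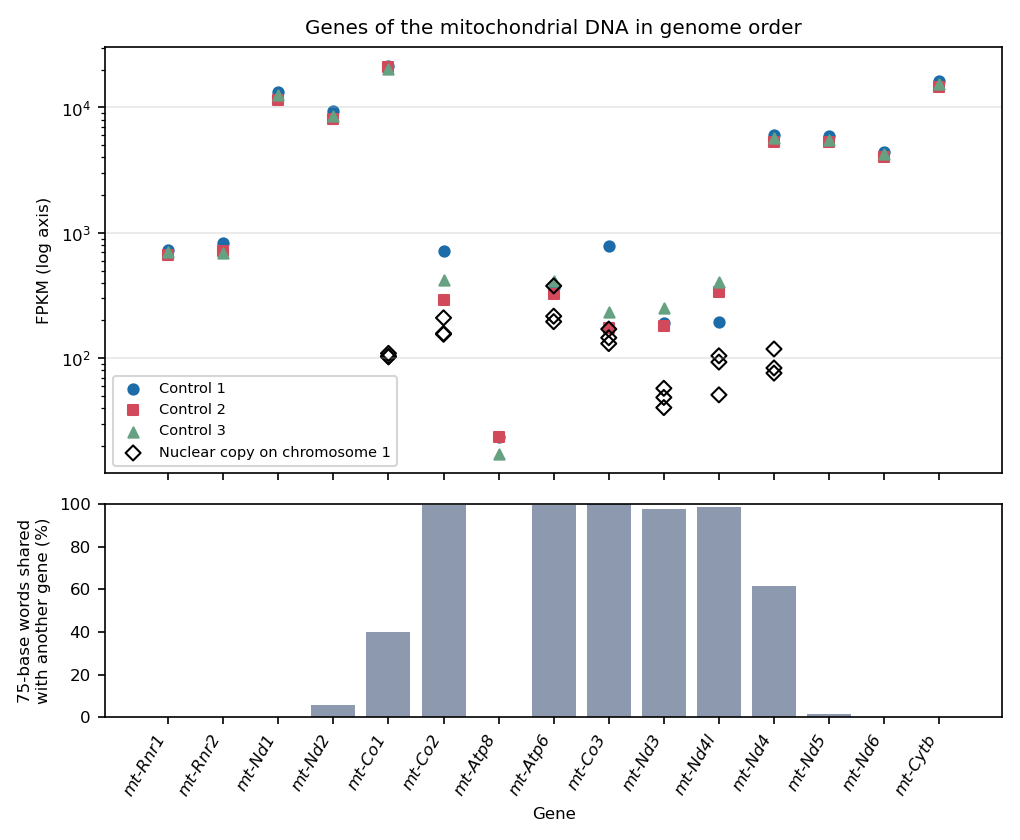
Upper panel, FPKM on a log axis of the 15 ribosomal RNA and protein genes of the mitochondrial DNA in genome order, 1 filled point per control, with the matching pseudogene on chromosome 1 as open diamonds. Lower panel, percent of each gene's 75-base words found in an annotated transcript of another gene. The genes mt-Co2 to mt-Nd4l have means of 477 or less, and all of them except mt-Atp8 share at least 97.8% of words.

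By annotated class, protein-coding genes held 95.0% ± 0.161 of FPKM and 98.5% of reads. Processed pseudogenes, copies of spliced messenger RNA set into the genome, came next with 1.98% ± 0.112 of FPKM and 0.431% of reads, and 501 of 8616 had a mean of at least 1. The highest were Mpc1-ps (572), Gm5424 (372), Gm10123 (356), Gm12338 (299) and Gm10221 (257). In all of these at least 65.3% of words occur in another gene. The 22 mitochondrial transfer RNA genes held 1.20% ± 0.0475 of FPKM and 0.0329% of reads, led by mt-Tp, mt-Tc (599), mt-Tl2 (501), mt-Tn (463) and mt-Te (427). The 2 mitochondrial ribosomal RNAs held 0.349% of FPKM. Unprocessed pseudogenes held 0.264%, and their 5 highest were the mitochondrial copies Gm10925 (263), Gm28661 (174), Gm28437 (149), Gm29216 (105) and Gm28439 (92.5). Pseudogenes of every kind summed to 2.45% ± 0.165 of FPKM, of which those with at least 50% of words shared made up 2.02% of the total.

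Long intergenic noncoding RNAs held 0.325% ± 0.0155 of FPKM, with 194 of 5082 at a mean of at least 1. Malat1, a nuclear RNA found in most tissues, led them at 186, 99.4 and 111, with control 1 high. D630029K05Rik (50.3), Gm44386 (39.7), Gm12678 (37.1) and AI314278 (35.9) followed. Antisense RNAs held 0.210%, led by Gm19950 (49.4), 0610005C13Rik (30.3) and Gm15347 (25.9). Hoxb5os (23.7) lies opposite a Hox gene and Hnf4aos (16.1) opposite the proximal tubule regulator Hnf4a. No source used here says whether strand was recorded in the libraries, so reads of an antisense gene and its partner cannot be told apart. Among small RNA genes, Mir5125 (46.8), Mir196a-1 (28.3) and Snord104 (55.3) were highest, and the host transcripts around such genes were not separated from them. Immunoglobulin and T cell receptor segments were low, with Igkc at 6.60 and Ighm at 3.11, and 6 of 699 reached 1.

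Markers along the nephron were read from lists of genes per segment or cell type. In whole-kidney RNA, fewer cells of a type and less RNA per cell cannot be told apart, so the levels describe the tissue and not the cells. Counts of list genes highest or lowest in a control, here and in all later paragraphs, are descriptions. The matching share over all genes is not given, so how unusual such a count is cannot be read from it. In the glomerulus, 11 of 12 podocyte genes had a mean of at least 1 and 3 at least 10, with a median of 4.53. Podxl, a sialomucin that also lines endothelium, was highest at 40.0, 39.2 and 31.9. The slit diaphragm gene Nphs1 (nephrin) stood at 4.40, 4.20 and 3.49, and like Podxl it was lowest in control 3. Synpo, an actin organiser, stood at 6.58 ± 1.56, the transcription factor Wt1 at 1.47 ± 0.254, and Plce1, a phospholipase, was the lowest at 0.600 ± 0.0951.

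All 20 genes of the general proximal tubule list had a mean of at least 10 and 19 had at least 100, with a median of 584. In the connecting tubule list 4 of 5 reached 10 and 3 of 5 reached 100, with a median of 105.5. The counts were 12 of 14 and 5 of 14 in the thick ascending limb list and 9 of 12 and 1 of 12 in the principal cell list. Together the 20 proximal tubule genes held 9.62% of FPKM, and without Kap 2.96% ± 0.0994. Beside Kap, Miox and Slc34a1, high members of the list were Ass1 (945), Cyp4b1 (908), Pck1 (896), the fatty acid transporter and ligase Slc27a2 (856), Fbp1 (684) and Acsm2 (658). The urate transporter Slc22a12 stood at 470, 402 and 373, and Gatm, which starts creatine synthesis, at 350, 256 and 262. Control 1 was the high library for Slc22a12 and Gatm and the low one for Ass1, Cyp4b1 and Slc27a2. The endocytic receptor Lrp2 stood at 119, 118 and 132. Its partner Cubn (cubilin) was the lowest of the list at 27.6, 28.2 and 31.7, and the ratio of the pair was 4.22 ± 0.0765 in the 3 controls.

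The segments of the proximal tubule were each present. For the early segment (S1) the median was 52.7: the glucose transporter Slc5a2 stood at 152, 145 and 138, the lactate transporter Slc5a12 at 87.3 ± 6.77, the neutral amino acid transporter Slc6a19 at 58.6 ± 5.38, and the basolateral glucose carrier Slc2a2 was lowest at 32.6 ± 1.48. For the middle segment (S2) the median was 157, with the organic anion transporters Slc22a6 at 205 ± 18.2 and Slc22a8 at 71.5, 104 and 87.7 and the organic cation transporter Slc22a2 at 138 ± 8.03. For the late segment (S3) the median was 77.2. Its leading gene Slc7a13, an amino acid transporter, stood at 434, 538 and 515, and the low member was the high-affinity glucose transporter Slc5a1 at 20.1 ± 1.19. The ratio of the early to the late glucose transporter, Slc5a2 to Slc5a1, was 7.21 ± 0.238.

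Thin limb genes were low, with a median of 4.21 over 5 genes. The urea transporter gene Slc14a2 stood at 12.9, 20.2 and 20.3, with control 1 low. The thick ascending limb list had a median of 62.9, and all 14 genes reached 1. After Umod came Wfdc15b (241, 284 and 312) and Slc12a1, the sodium, potassium and chloride cotransporter that loop diuretics block, at 204, 257 and 316. Both were lowest in control 1 and highest in control 3. Egf, whose product is shed into urine, stood at 136, 170 and 159, the potassium channel Kcnj1 at 74.6 ± 3.50, and the chloride channel subunit Bsnd at 24.4 ± 1.13. The claudins of the divalent cation pathway, Cldn16 and Cldn19, stood at 10.1 ± 1.58 and 8.71 ± 0.534. Tmem72 was lowest at 6.26. Of the 14 genes, 9 were highest in control 3 and 9 were lowest in control 1. Genes of the macula densa, the salt sensor at the end of this limb, were all under 1: Robo2 stood at 0.939, Ptgs2 (cyclooxygenase 2) at 0.196, Nos1 at 0.0931 and Pappa2 at 0.0620.

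In the distal convoluted tubule list the median was 22.0. Slc12a3, the thiazide-sensitive sodium chloride cotransporter, led at 87.1, 66.1 and 62.7, the kinase Wnk4 that regulates it stood at 34.7 ± 1.82, parvalbumin (Pvalb) at 20.8, 13.0 and 11.5, and the magnesium channel Trpm6 at 2.34 ± 0.266. Slc12a3 was highest in control 1, where Slc12a1 was lowest, so their ratio ran from 2.35 through 3.88 to 5.05 in controls 1 to 3. In the connecting tubule list all 5 genes were highest in control 1. Beside Klk1 and S100g these were the calcium buffer Calb1 at 130, 98.3 and 87.8, the sodium calcium exchanger Slc8a1 at 20.0 ± 2.81, and the calcium channel Trpv5 at 6.44 ± 0.909.

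In the collecting duct, the principal cell list had a median of 18.9. Aqp2, the vasopressin-regulated water channel, led at 275, 342 and 369, with control 1 low. Hsd11b2, which shields the mineralocorticoid receptor from glucocorticoids, stood at 75.4 ± 9.28 and Aqp3 at 72.1 ± 9.94. The 3 subunits of the epithelial sodium channel stood at 28.8 ± 0.822 (Scnn1a), 15.7 ± 1.89 (Scnn1b) and 14.5 ± 1.97 (Scnn1g). The vasopressin receptor Avpr2 was lowest, at 6, 4 and 2 reads (0.0676), and 74.9% of the words of its longest coding transcript also lie in its neighbour Arhgap4, so its level is uncertain. Type A intercalated cell genes had a median of 9.64, led by Aqp6 (27.4) and the proton pump subunit Atp6v1g3 (27.3). The chloride bicarbonate exchanger Slc4a1 stood at 11.1 ± 0.814 and the transcription factor Foxi1 at 8.21 ± 1.66. Type B genes had a median of 17.7. Pendrin (Slc26a4) led at 22.5, 21.1 and 20.9, and all 4 members were highest in control 1.

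**Figure D4:**
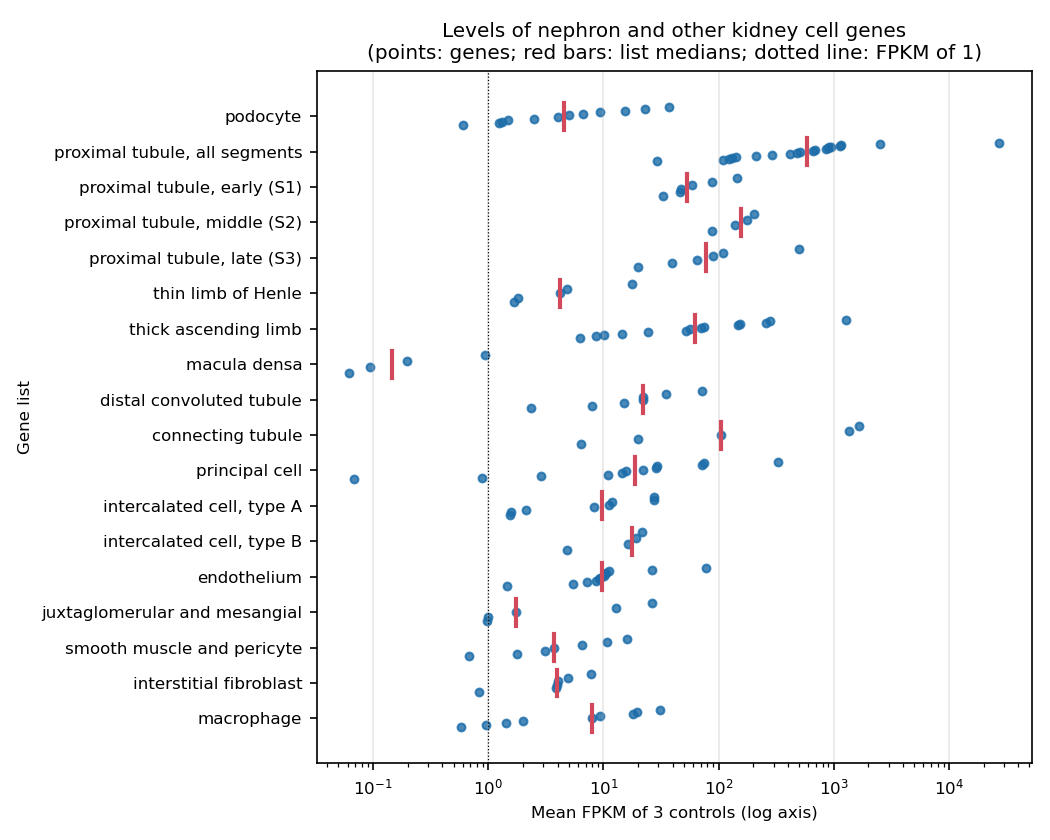
Mean FPKM of the 3 controls on a log axis for each gene of 18 nephron and other kidney cell lists, 1 point per gene, with list medians as red bars and a dotted line at 1. The general proximal tubule list has the highest median, 584, and the macula densa list is wholly below 1.

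Vascular and interstitial genes were lower. Of the 12 endothelial genes all reached 1, with a median of 9.68. The fenestral diaphragm gene Plvap led at 77.8 ± 6.82, and Pecam1, Kdr and Cdh5 stood at 10.5, 8.64 and 7.22. Renin (Ren1), made by juxtaglomerular cells, stood at 34.2, 25.2 and 20.2, and the angiotensin receptor gene Agtr1a at 12.8 ± 0.236. Smooth muscle actin (Acta2) stood at 22.3, 14.9 and 11.3. The fibroblast genes Dcn, Col1a2, Col3a1 and Col1a1 stood at 7.81, 4.95, 4.01 and 3.91. Control 3 held the lowest value of 11 of 12 endothelial genes, of 6 of 6 smooth muscle and pericyte genes that reached 1 and of 5 of 5 fibroblast genes that reached 1. The share of all genes lowest in control 3 is not given beside these counts. The summed levels of these lists in controls 1 to 3 were 188, 200.4 and 174 for endothelium, 53.4, 42.1 and 33.2 for smooth muscle and pericyte, and 29.8, 27.7 and 18.7 for fibroblast.

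Among immune genes, the macrophage list had a median of 8.02, with Lyz2 at 27.6, 19.2 and 46.1, the complement genes C1qa and C1qb at 19.6 and 18.1, Csf1r at 9.29 and Adgre1 at 1.42. Trac (1.05) was the one T cell gene of 6 that reached 1. The B cell gene Ms4a1 stood at 0.0651, the neutrophil genes S100a8 and S100a9 at 1.17 and 1.63, and Ly6g and Mpo had 0 reads in every control. Urothelial genes were present with a median of 4.37, and all 6 were highest in control 3, with summed levels of 39.6, 30.6 and 54.8.

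Markers of neighbouring tissue and blood were checked in the same way. Of 10 adrenal genes none reached 1, Star was highest at 0.862, and Cyp11b1, Cyp11b2, Th and Pnmt had 0 reads in every control. Skeletal muscle genes were all under 1, with Mylpf highest at 0.886. Of 6 pancreas genes 5 were under 1, and the elastase gene Cela1 stood at 107 ± 7.41. Of the liver list, Ttr stood at 64.2, Serpina1a at 15.7, and albumin (Alb) at 1.92, 7.88 and 6.34. Haemoglobin genes were uneven: Hbb-bs stood at 663, 183 and 253 and Hba-a1 at 290.1, 87.9 and 124. All 5 erythroid genes were highest in control 1, with sums of 1187, 318 and 436. The adipocyte genes did the same, with 6 of the 6 that reached 1 highest in control 1, sums of 123, 30.2 and 35.8, and Lep near 0 (0.00889). The serine protease Cfd, also known as adipsin, stood at 63.5, 12.7 and 15.1, and the brown fat uncoupling gene Ucp1 at 16.5, 1.26 and 2.08. The part of blood and fat in other differences between the controls was not tested.

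The sex label was checked. The Y-linked genes Ddx3y, Eif2s3y, Uty and Kdm5d stood at 15.9 ± 0.544, 13.9 ± 0.787, 3.34 ± 0.224 and 1.75 ± 0.111, and Xist had 2, 0 and 3 reads. All 8 genes of the androgen-responsive list had a mean of at least 10, from Kap to Cyp4a12a (11.8 ± 2.49). Odc1, the ornithine decarboxylase of polyamine synthesis, stood at 480, 256 and 299, Acsm3 at 126, 81.9 and 92.1 and Slco1a1 at 86.6, 49.2 and 61.0. These 3 genes and Kap were highest in control 1 and lowest in control 2. The list as a whole was mixed: of its 8 genes 4 were highest in control 1, 3 in control 2 and 1 in control 3. The lowest value lay in control 1 for 2 of them, in control 2 for 5 and in control 3 for 1. Of genes reported as higher in females, Cyp4a14 stood at 144, 47.3 and 36.7, Slc7a12 at 1.93, 8.41 and 5.47, and Prlr at 0.512, 3.84 and 1.73. Control 1 was high for the first and low for the other two.

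In carbohydrate metabolism, the gluconeogenesis list had a median of 167 over 8 genes. Beside Fbp1, the cytosolic phosphoenolpyruvate carboxykinase Pck1 stood at 975, 896 and 817, the glucose-6-phosphatase G6pc at 153, 166 and 183 and the pyruvate carboxylase Pcx at 167 ± 5.85. The mitochondrial enzyme Pck2 was the lowest at 5.85 ± 0.719, and the ratio of Pck1 to Pck2 was 155 ± 28.6. Of 18 glycolysis genes 15 reached 1, with a median of 33.9. Ldhb, the lactate dehydrogenase subunit of oxidative tissue, stood at 682, 689 and 697 against 217, 209 and 192 for Ldha, a ratio of 3.36 ± 0.257. Hexokinase genes were low, with Hk1 at 15.2 ± 1.44, Hk2 at 0.372 and Hk3 at 0.202.

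Gapdh, often used as a reference gene, stood at 2.12, 1.63 and 7.34 (164, 154 and 678 reads). Of the words of the longest Gapdh coding transcript 80.3% also occur elsewhere, above all in the pseudogene Gm7336 on chromosome 7, which stood at 12.8. The 2 sequences are identical over 1065 bases. Their shared 90 bases are printed because no short read inside them could be placed: bases 375 to 464 of the transcript Gapdh-202 (gene at chr6:125161715-125166467, minus strand), which are also chr7:51746979-51747068 (plus strand, GRCm38).
Gapdh and Gm7336: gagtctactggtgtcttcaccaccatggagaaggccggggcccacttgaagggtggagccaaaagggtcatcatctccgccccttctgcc

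Of 14 reference genes all reached 1, from Eef1a1 to Tbp (1.23 ± 0.0264). Actb stood at 159, 162 and 146 and Hprt at 63.6, 67.3 and 68.4, both within a narrow range. B2m stood at 255, 431 and 260, with control 2 high. Rpl13a stood at 6.41 ± 0.130, with 56.3% of its longest coding transcript's words in another gene. Over all 473 genes named in the lists, 17 had at least 50% of these words shared and 313 had none.

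All 17 genes of fatty acid oxidation had a mean of at least 10, with a median of 90.7, from the medium-chain dehydrogenase Acadm (262 ± 31.6) to the carnitine carrier Slc25a20 (13.7 ± 0.730). Ehhadh, of the peroxisome, stood at 238 ± 27.6, and Cpt1a, which commits fatty acids to the mitochondrion, at 107 ± 7.80. All 16 antioxidant genes had a mean of at least 10, with a median of 219, and they held 4.62% of FPKM, of which 3.88% ± 0.235 came from Gpx1, Gpx3 and Gpx4. The peroxiredoxin Prdx5 stood at 807 ± 40.3, Sod1 at 719 ± 20.2, catalase (Cat) at 358 ± 34.0, and Prdx4 was lowest at 10.3. Metallothioneins were uneven: Mt1 stood at 77.5 ± 11.1 and Mt2 at 0.166, with 3, 2 and 1 reads. Ferritin Fth1 was 6.64 ± 0.529 times Ftl1, but 84.8% of the words of the longest coding Ftl1 transcript occur in another gene, so Ftl1 is uncertain.

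Transporters gave 250 of 371 Slc genes with a mean of at least 1 and 150 with at least 10, holding 2.68% ± 0.0837 of FPKM. The highest were Slc34a1, Slc27a2, the adenine nucleotide carrier Slc25a5 (701 ± 5.37), Slc7a13, Slc22a12 and Slc12a1. Of 25 Slc22 genes, the organic ion transporters, 17 reached 10. Water channels were led by Aqp1 of the proximal tubule and thin descending limb at 315, 430 and 428. Its ratio to Aqp2 was 1.19 ± 0.0600, though both were lowest in control 1. Aqp3, Aqp6, Aqp4, Aqp7 (8.92) and Aqp11 (7.77) followed, and the other 4 were under 1. Of the sodium pump genes, the modulator Fxyd2 stood at 597 ± 11.8 and the beta subunit Atp1b3 at 42.4 ± 1.94. Of 22 genes of the vacuolar proton pump (Atp6v) 21 reached 1, led by Atp6v1g1 (180). Claudins were led by Cldn2 (173), the paracellular cation channel of the proximal tubule, and 12 of 33 reached 1.

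For genes that handle platinum drugs and other foreign compounds, 12 of 13 reached 1. The basolateral cation transporter Slc22a2 and the apical exchanger Slc47a1 stood at 138 ± 8.03 and 156 ± 4.42, Ggt1, which cleaves glutathione conjugates, at 252 ± 10.7, Gstp1 at 153 ± 8.78, and the copper transporter Slc31a1 at 52.9 ± 1.47. The copper ATPase Atp7b was lowest at 0.660. Of 100 Cyp genes 33 reached 1, led by Cyp4b1 (908 ± 135), Cyp2j5 (739 ± 16.0), Cyp2e1 (567 ± 44.4), Cyp2a4 (166) and Cyp2j11 (133). Of 22 Ugt genes 9 reached 1, led by Ugt3a2 (500.1) and Ugt2b38 (432), and of 21 Gst genes 15 did, led by Gstm1 (258). Ribosomal protein genes, 80 of 84 at 1 or more, held between 3.15% and 3.21% of FPKM in the 3 controls. Genes with an Nduf symbol, which covers complex I subunits and assembly factors, reached 1 in 46 of 46 cases and held 1.44%. Of 1119 olfactory receptor genes (Olfr) 1 reached 1.

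Among regulators, all 23 kidney transcription factors of the list reached 1, with a median of 9.40. Hnf4a, the proximal tubule regulator, led at 209, 224 and 204. Tfcp2l1 of the distal nephron stood at 44.3 ± 2.57, Pax8 at 9.40 ± 1.34 and Pax2 at 7.32 ± 1.06. Of 38 nuclear receptors 32 reached 1. After Hnf4a came Esrra, a regulator of mitochondrial genes, at 89.0, 88.7 and 88.7, the bile acid receptor Nr1h4 at 71.7 ± 5.27, the vitamin D receptor Vdr at 36.4 ± 2.47 and Rxra at 30.6 ± 1.53. The mineralocorticoid receptor Nr3c2 stood at 3.12 ± 0.226. Nr1i2, which encodes the pregnane X receptor that the study is named for, stood at 2.07, 2.61 and 2.80, from 99, 152 and 160 reads, and ranked below 26 of the 38 receptors. Nr1i3, the constitutive androstane receptor, stood at 0.0521.

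Hormone genes ranged widely. The guanylin-family peptide Guca2b stood at 370 ± 23.2, osteopontin (Spp1) at 477 ± 20.5, the phosphate and ageing regulator Kl (klotho) at 81.9 ± 5.89, and erythropoietin (Epo) at 9, 2 and 1 reads. The vitamin D enzymes differed between the controls: Cyp24a1, which inactivates the hormone, stood at 17.3, 32.5 and 17.8, and Cyp27b1, which makes it, at 7.39, 2.59 and 4.69. Control 2 was highest for the first and lowest for the second, and their ratio was 2.34, 12.6 and 3.81.

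As a baseline for injury, 6 of 12 tubular injury genes reached 1. Krt8 stood at 68.3 ± 3.07 and Clu at 79.1, 58.3 and 51.8. Havcr1 (kidney injury molecule 1) stood at 0.810, 0.512 and 0.484, Lcn2 at 1.18, 0.752 and 0.938, Timp1 at 0.203 and Sox9 at 0.103. Of immediate early genes, Ier3 stood at 36.3 ± 0.897 and Dusp1 at 10.8, 13.4 and 21.8, while Fos (14, 9 and 13 reads) and Fosb (28, 3 and 2 reads) were close to 0. Of 15 clock genes 13 reached 1. The clock output genes Tef and Dbp and the repressor Nr1d2 stood at means of 50.6, 30.9 and 31.9, and the activators Arntl and Npas2 at 0.289 ± 0.0326 and 0.134 ± 0.0508, so in every control the first 3 stood far above the other two.

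The spread between the 3 controls was small for most genes. Pearson correlations of log2(FPKM + 1) across the 12543 genes of at least 1 were 0.987, 0.988 and 0.992 for the 3 pairs of libraries. Genes are not independent replicates, so these are descriptions. The median absolute difference between 2 libraries ranged from 0.0855 to 0.107 on that scale. A gene was counted as varying when its highest control was at least 2 times its lowest. Of genes with a mean of at least 1, 522 of 12543 varied (4.16%), and of genes with a mean of at least 10, 58 of 4674 varied (1.24%). By class at a mean of at least 10, 35 of 4441 protein-coding genes varied (0.788%), 18 of 159 pseudogenes (11.3%) and 5 of 74 other genes (6.76%). At a mean of at least 1, 1.75% of protein-coding genes and 21.6% of pseudogenes did. The share was highest there in the other genes, 195 of 737 (26.5%). Of the 58, 54 had words to count, and 23 of these (42.6%) shared at least 50% of their words with another gene, against 4.45% of all genes with a mean of at least 10.

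The 15 genes with the largest spread fell into a few kinds. Of them 7 share at least 50% of their words: the pseudogenes Gm10705 (6.96, 39.8 and 2.81), Gm10241 (23.6, 103 and 92.6), Apoo-ps (18.7, 3.52 and 8.24) and Gm10123 (310, 152 and 607), the globins Hba-a2 and Hbb-bt, and mt-Co3. Pairs of a gene and its copy differed in how their sum varied. The prolyl isomerase Ppia and its copy Gm10123 had coefficients of variation of 28.7% and 65.1% in RPM (reads scaled to the total of the library), and their sum had 3.21% (618, 645 and 606 RPM). The ribosomal protein gene Rpl17 and its copy Rpl17-ps10 had 52.3% and 35.3%, and their sum 7.33%. The modifier gene Sumo2 and Gm10241 had 75.5% and 58.9%, and their sum 18.6%. The gene mt-Co3 and Gm28437 had 84.5% and 13.9%, and their sum had 61.4%. For mt-Nd4l and Gm10222 the values were 34.6%, 34.0% and 34.4%. Gm10705, which had the largest spread of the 15, had 122% against 3.49% for Ube2l3, with which it shares words, and their sum had 19.3%. These pairs, some of them outside the 15 genes, were picked after their values were seen.

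Of the other 8, 7 have no shared words, and Cyp2a5 shares 22.3% of its words, most of all with Cyp2a4. Cox8b, an oxidase subunit of heart, muscle and brown fat, stood at 30.6, 3.04 and 8.07, and Cfd was likewise high in control 1. In the same library the brown fat list, added after the values were seen, summed to 129, against 51.4 and 64.0, with 4 of the 5 members that reached 1 highest there. Irf7 (4.46, 28.5 and 11.6), Lgals3bp (19.1, 79.5 and 24.3), Ifi27 (36.0, 135 and 42.6) and Isg15 (8.13, 31.0 and 28.5) are genes that interferon induces. A list of 18 such genes, also added after the values were seen, had 17 with a mean of at least 1. All 17 were highest in control 2 and lowest in control 1. The share of all genes in that order is not given. Among the 58 varying genes with a mean of at least 10, 19 were highest in control 2 and 29 were lowest in control 1. Some of those 58 genes are in this list. Of the 17, 14 varied by 2 times or more, against 4.16% of all genes with a mean of at least 1. Because the list was chosen after genes of its kind were seen to vary, that contrast is partly set by the choice. The list summed to 279, 775 and 449. Of the 7 macrophage genes that reached 1, 6 were also highest in control 2. The exception was Lyz2, highest in control 3, and the summed macrophage level, Lyz2 included, was 82.8, 89.4 and 100.5 in controls 1 to 3. The part of immune cells in the interferon difference was not tested. The last 2 are cytochromes: Cyp2a5 stood at 19.8, 69.4 and 80.1, low in control 1, and Cyp4a14 was high there. Cyp2a4 was lowest in control 1 too, at 88.0, 191 and 219.

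**Figure D5:**
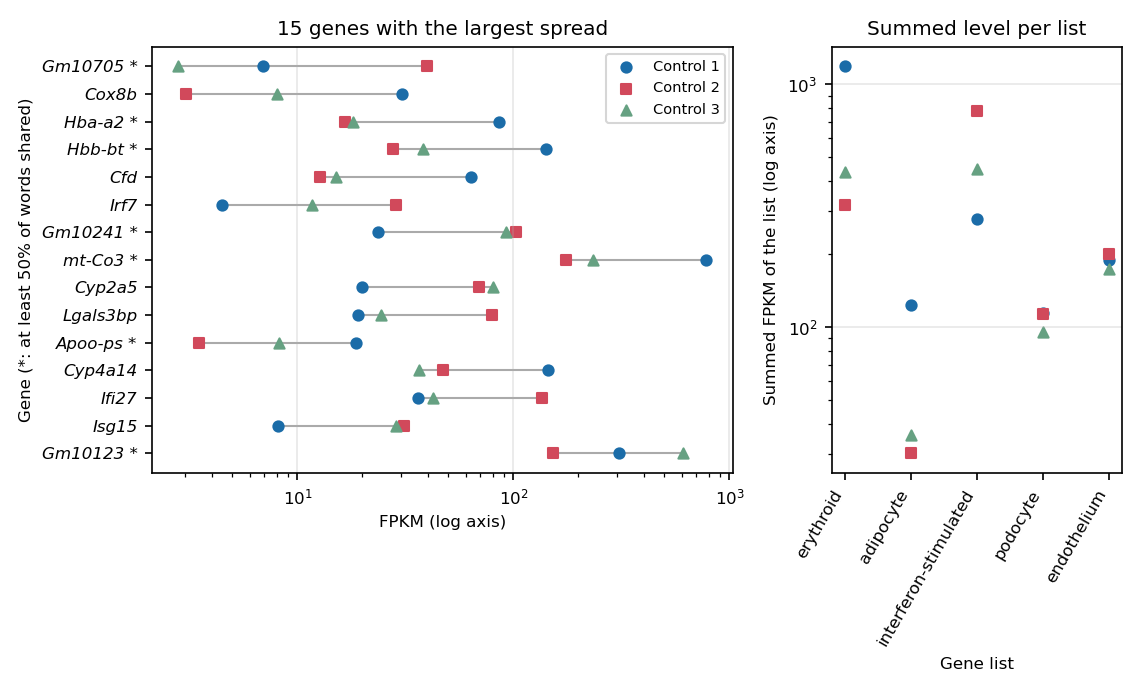
Left, FPKM on a log axis of the 15 genes with the largest SD of log2(FPKM + 1) among those with a mean of at least 10, 1 point per control, with an asterisk on the 7 that share at least 50% of their words. Right, summed FPKM per control on a log axis for 5 gene lists; erythroid and adipocyte sums are highest in control 1 (1187 and 123), the interferon-stimulated sum in control 2 (775), and the podocyte and endothelium sums stay within 1.20 times.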

How the data were processed

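The values used are FPKM (fragment counts divided by gene length and library size) taken from the 3 control columns of the table deposited by the authors. HISAT2 2.0.5, featureCounts 1.5.0-p3, DESeq2 1.16.1 and edgeR 3.18.1 are listed, without roles or settings, in the submitters' processing notes. Those notes name build mm8, but 52403 of 52636 gene identifiers are in GENCODE release M21 (GRCm38), so coordinates were read as GRCm38. Multiplied by gene length, 100% of the FPKM values of a library were whole multiples of a single step (tolerance 0.001), from which assigned reads were recovered. These totals were 1.02 to 1.03 times the totals implied by the FPKM.

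Genes were ranked by mean FPKM, and biotype, length and position were taken from the deposited table. Shares were computed per library with Python 3.11.15, pandas 2.3.3 and numpy 2.4.6. There is 1 group, so no test was made and no p-value is given. A gene was called varying at 2 times between the highest and lowest control. Shared words were 75 bases long (100 in an alternative). The read recovery and the call of varying genes were run on simulated counts with planted changes. FPKM was formed there by the formula that the recovery inverts, so the recovery of reads was set by construction. The simulation held no spread between animals and no reads with several matching places, so it says nothing of these.

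Named genes were the 50 highest, the highest of each class and family, list members that define a segment or are highest or lowest, and the 15 with the largest SD of log2(FPKM + 1). Members and lists were chosen with earlier results of these data known. The interferon and brown fat lists and the gene and copy pairs were chosen after seeing the values. Some genes that this rule names are withheld and not reported here.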

Additional observations from a re-analysis of the deposited data

How the results depend on the processing

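FPKM depends on the deposited gene lengths, on other genes in the library and on how reads with several matches were counted, and 3 libraries allow no outlier test. Genes near an FPKM of 1 rest on about 20 reads per kilobase. The 10 highest genes were the same by the median, by the geometric mean, under both rescalings and without each control in turn, and 8 of them remained by reads. Leaving out the mitochondrial genes removes 7 of the 10 by construction. The number of genes with a mean of at least 1 stayed within 1.5 times under every alternative run.

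Leaving out each control in turn gave 12527 to 12561 genes of at least 1. It gave 38.4% to 39.2% for the 50 highest genes, 22.9% to 23.2% for the 50 with most reads, 19.2% to 20.0% for mitochondrial genes and 94.9% to 95.1% for protein-coding genes. The proximal tubule median ranged from 579 to 588. The number of varying genes ranged from 194 to 358. It was 194 without replicate 1, 318 without replicate 2 and 358 without replicate 3, against 522 with all 3, and a range over fewer samples is narrower by construction.

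Without mitochondrial genes the 50 highest held 27.0% of FPKM, the 50 with most reads 16.7% of reads, and protein-coding genes 95.7% of FPKM. Over protein-coding genes alone the 50 highest held 40.4% of FPKM, the 50 with most reads 23.5% and 196 genes varied. By reads in place of FPKM, the 50 highest held 23.1%, mitochondrial genes 9.21%, protein-coding genes 98.5%, and the proximal tubule median was 1554 RPM (reads scaled to the library total). Protein-coding genes held 95.3% over genes of at least 1 alone. In TPM, FPKM rescaled to a fixed sum, the proximal tubule median was 1414 and 1267 genes varied, because values on that scale are larger and more genes pass a minimum of 1. The count of varying genes was 10308 with no minimum, 1044 at a minimum of 0.5, 242 at 2, and 241 with a pseudocount of 1, an alternative added after seeing the data. No paired analysis was possible because 1 group was described.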
